A study of Mus musculus with 4 samples.

Results

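The mouse genes examined here encode the nuclear subunits of the mitochondrial respiratory chain and of ATP synthase, with the complex I assembly factors that share the Nduf prefix. Members were taken by gene symbol alone: symbols that begin Nduf, Uqcr or Atp5, Cox followed by a digit from 4 to 8, and Cyc1, Cycs, Sdha, Sdhb, Sdhc and Sdhd. They numbered 92 of the 18193 genes on the arrays with a single-symbol probe set, and 184 of 34945 such probe sets. Where a gene had several probe sets, the brightest on average over the 4 arrays was used. Of the 92, 91 passed the filter on low signal and were tested. Ndufb4 was left out, since its only single-symbol probe set read 16.2 and 11.7 with leukemia inhibitory factor (LIF) and 38.6 and 17.0 without LIF, with a mean log2 signal below the filter (a signal of 22.9).

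The cells were CGR8 cells, an established embryonic stem (ES) cell line of the mouse, grown on gelatin without feeder cells named in the labels. The groups were 2 arrays of cells kept with LIF at 1000 U/ml and 2 arrays of cells given the same kind of medium without LIF, both for 2 days. LIF is the cytokine that holds mouse ES cells in an undifferentiated state. The labels number the arrays 1 and 2 in each group and do not say that they came from separate cultures, so a p-value here reflects no more than array-to-array spread, and that spread may be technical.

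The respiratory chain sits in the inner mitochondrial membrane. Complex I (NADH dehydrogenase) and complex II (succinate dehydrogenase) pass electrons to ubiquinone, complex III passes them on to the small carrier cytochrome c, and complex IV (cytochrome c oxidase) gives them to oxygen. Complexes I, III and IV pump protons, and ATP synthase, also called complex V, makes ATP as the protons flow back. Naive mouse ES cells are known to use oxidative phosphorylation as well as glycolysis, and epiblast-like cells are known to lean more on glycolysis.

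Values were MAS5 signals on a linear scale, each array scaled by its trimmed mean. All 7 LIF response genes listed for this check were lower on both arrays without LIF and 4 of them fell, and Socs3, the feedback inhibitor of LIF signalling, fell by 4.16 on the log2 scale (limma, adjusted p = 0.0046). That call was lost without the variance trend (adjusted p = 0.25, the same change) and with plain probe sets (-3.74, adjusted p = 0.057). Pou5f1, the ES cell factor Oct4, had a log2 change of 0.02, and of -0.27 with a common median. Log2 signals of array pairs correlated at r = 0.932 to 0.962 across the 14445 tested genes, which are not independent replicates. The 2 arrays with LIF gave 0.962 and the 2 without LIF gave 0.948. Across the groups, the arrays numbered 1 gave 0.952 and those numbered 2 gave 0.953. Control probe sets differed by array number. For 18S ribosomal RNA array 1 read 462 with LIF and 451 without LIF, and array 2 read 5150.4 and 2990.4. The 3' to 5' ratio of Actb, which rises as RNA degrades, was 1.32 and 1.44 for number 1 against 1.83 and 1.77 on the others, while that of Gapdh was 0.784 and 0.793 against 0.785 and 0.783. Changes within each number are given for the members with the largest differences and where the numbers disagreed, and the part of RNA quality in any result was not tested. Some values below come from a fit with the array number as a block, though the labels do not say that the numbers pair the samples. That fit has fewer residual degrees of freedom than the 2 of the main fit, and it called 975 of all tested genes against 21.

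Most respiratory chain transcripts differed little after 2 days without LIF, as did other genes of like brightness. Of the 91 tested members 0 rose and 0 fell in limma at an adjusted p of 0.05, where 0.145% of all tested genes were called. At an unadjusted p of 0.05 there were 2, Cox7a1 and Ndufb1, against 10.9% of all tested genes. The log2 change was under 0.5 in size for 87 of 91 members, against 69.2% of all tested genes, and was 1 or more for 2, Cox7a1 and Cox8b, against 11.5%. Among the 1378 tested genes with a mean signal of 3426 or more, the lower quartile of the members, 92.9% were under 0.5 and 23 genes were at 1 or more, and all 68 members in that range were under 0.5. For 82 members the 95% interval of the change lay within 2-fold in either direction, and for 46 of these it lay within 1.5-fold. For the remaining 9 members the arrays did not limit the change to under 2-fold.

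The members were also bright. The signal of 70 of them (76.9%) lay in the top 10% of tested genes, at or above a mean of 3293. Their median log2 change was -0.08, against 0.09 for all tested genes, and 62 of 91 were negative, against 5867 of all 14445. The size of these small medians depended on the scaling of the arrays, and the sign of that for all genes did too. With quantile normalization the medians were -0.01 for the members and 0.02 for all genes, and with a common median per array they were -0.37 and -0.20. The negative members then numbered 47 and 85, in that order. The members' median was negative under each scaling, and it turned in the fits without array 2 of the LIF group (0.02) or without array 1 of the other group (0.03). In the range of signal at or above 3426 the median change was -0.08 for the 1378 genes and -0.07 for the 68 members. Changes there were negative for 933 of the 1378 genes and 46 of the 68 members. Counts of negative changes in the bright complexes below are to be read beside that share.

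**Figure D1:**
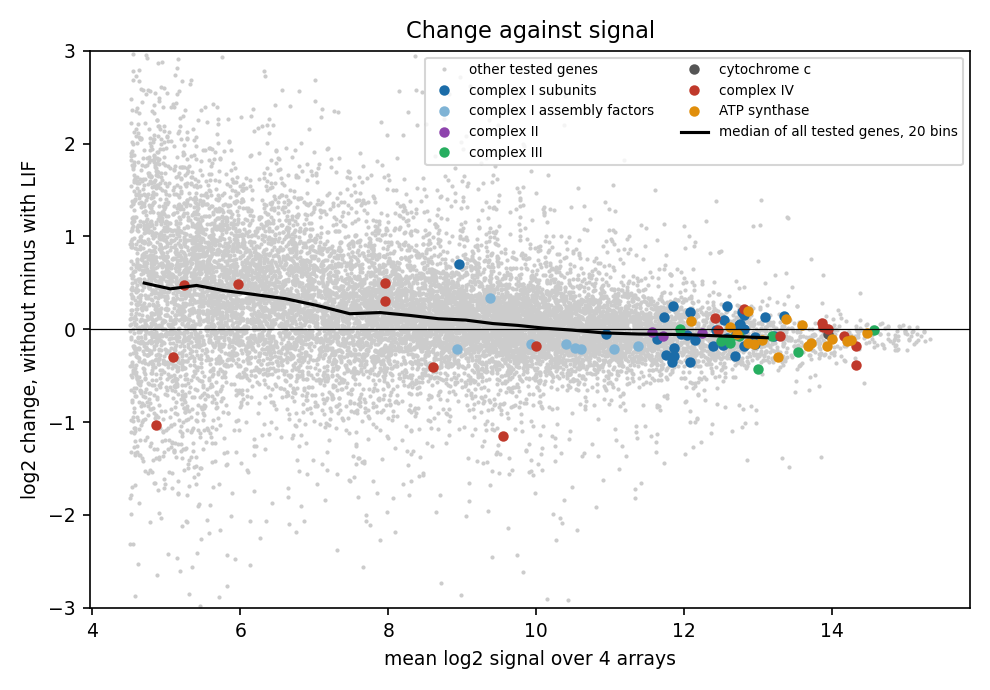
Log2 change without LIF (vertical axis) against mean log2 signal over the 4 arrays (horizontal axis) for tested genes (grey) and respiratory chain members (coloured by complex); the line joins the medians of 20 equal bins of all tested genes. The bin medians run from 0.50 at the dimmest signals to -0.09 at the brightest, and most members lie at the bright end near the line; points beyond 3 in size are not drawn.

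The groups did not overlap, with both arrays without LIF below both arrays with LIF, for 16 members (17.6%, against 15.2% of all tested genes). They lay apart in the other direction for 7 members (7.69%, against 27.3%). At a signal of 3426 or more both shares were smaller for the 68 members than for the 1378 genes, at 17.6% against 26% lower and 5.88% against 9.29% higher. The array number also moved with the members, as it did with other bright genes. Of the 91, 67 were higher on the array numbered 2 in both groups, with log2 medians of 0.19 in the LIF group and 0.20 in the other, while the same held for 4629 of 14445 genes. In the bright range it held for 55 of 68 members and 836 of 1378 genes.

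Complex I takes electrons from NADH, and its core subunits carry the flavin and the iron-sulfur clusters. All 6 core members on the arrays had negative changes, with a median of -0.14, and 0 passed the test. Ndufs7, which holds the cluster that hands electrons to ubiquinone, read 4036 and 4174 with LIF against 3506 and 3235 without LIF. Both arrays without LIF were lower, and the log2 change was -0.29 (95% interval -0.68 to 0.10, limma adjusted p = 0.59). Ndufs1, the large iron-sulfur subunit, and Ndufv2, an iron-sulfur subunit of the NADH-binding module, were also lower on both arrays, with log2 changes of -0.12 and -0.16. With quantile normalization these 3 subunits read -0.22, -0.05 and -0.09.

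The 27 tested accessory subunits of complex I, which surround the core and take no part in electron transfer, were split in sign, with 13 positive and 14 negative and a median of -0.05. Ndufb1, a small subunit of the membrane arm, had the largest change of any tested complex I gene. It read 359 and 425 with LIF against 593 and 682 without LIF. The arrays did not overlap, and the log2 change was 0.70 (1.63-fold, 95% interval 0.15 to 1.26, limma adjusted p = 0.34), with 0.72 and 0.68 within the numbers. It did not pass with the number as a block (adjusted p = 0.056). In the bin of tested genes nearest to it in signal the median change was 0.10.

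Other accessory subunits had smaller differences. Ndufv3, a subunit near the NADH-binding site, read 3679 and 4623 with LIF against 2835 and 3655 without LIF, a log2 change of -0.36 (95% interval -0.85 to 0.14, limma adjusted p = 0.59). Ndufb10 and Ndufa5 were also lower on both arrays, with log2 changes of -0.27 and -0.20 (0.020 for Ndufa5 with plain probe sets). In the other direction Ndufb11, Ndufa13 and Ndufa7 lay apart with log2 changes of 0.25, 0.19 and 0.15, which with a common median became -0.046, -0.11 and -0.15. Ndufa7, the accessory subunit with the brightest probe set, read 9599 and 10158 with LIF against 10413 and 11493 without LIF. Of its 4 other probe sets 3 had the same sign and the dimmest had -0.38.

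Of the 8 complex I assembly factors, proteins that build the complex without staying in it, 7 had negative changes and 1 was positive, and the median was -0.19. Ndufaf2, a chaperone of late assembly, read 1575 and 1787 with LIF against 1548 and 1345 without LIF (log2 change -0.22, 95% interval -0.67 to 0.23). Both arrays without LIF were lower, though array 1 by little, as its change within the number was -0.03. Ndufaf1, a factor of membrane arm assembly, and Ndufaf5, which hydroxylates Ndufs7, had log2 changes of -0.21 and -0.22, and in both the groups overlapped. Ndufaf8, the partner of Ndufaf5, read -0.18. Ndufaf3 was the exception, with signals of 545 and 637 with LIF against 771 and 719 without LIF and a log2 change of 0.34 (95% interval -0.17 to 0.85, limma adjusted p = 0.62). The assembly factors had a median change of -0.04 on the arrays numbered 1 and of -0.28 on those numbered 2.

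Complex II is also an enzyme of the TCA cycle, and 0 of its 4 genes passed. Sdha, the flavoprotein, read 4568 and 5333 with LIF against 4669 and 4902 without LIF. Sdhb, the iron-sulfur subunit, read 6107 and 6558 with LIF against 5572 and 6161 without LIF. The membrane anchor Sdhc read 3041 and 3088 with LIF against 2985 and 3019 without LIF, and the other anchor, Sdhd, read 3025 and 3950 with LIF against 2994 and 3606 without LIF. The log2 changes ran from -0.11 for Sdhb to -0.03 for Sdhc, with the groups of Sdha, Sdhb and Sdhd overlapping. For all 4 genes the 95% interval lay within 1.5-fold in either direction, for example from -0.42 to 0.36 for Sdhc. With quantile normalization Sdha and Sdhc read 0.02 and 0.03, and with the mean of probe sets Sdhd read 0.038.

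In complex III 8 of 9 subunits had negative changes, with a median of -0.11, and 0 passed. Uqcrc1, one of the core proteins on the matrix side, read 8876 and 10157 with LIF against 6150 and 8123 without LIF. The groups did not overlap, and the log2 change was -0.43 (95% interval -0.89 to 0.04, limma adjusted p = 0.49), with -0.53 and -0.32 within the numbers. With the number as a block its adjusted p was 0.057. Uqcrc2, the other core protein, read -0.14, and Cyc1, the cytochrome c1 that hands electrons to cytochrome c, read 11671 and 14345 with LIF against 9029 and 13296 without LIF (log2 change -0.24). In both the groups overlapped, and for Cyc1 the change for array number 1 was -0.37 against -0.11 for number 2. Uqcrb, which helps to form the ubiquinone site and had the brightest probe set of the complex, read 22895 and 25589 with LIF against 22901 and 25403 without LIF. Its log2 change of -0.01 (0.07 with quantile normalization) had a 95% interval of -0.40 to 0.39. Uqcr11, with the dimmest probe set, had a change of 0.0016 (-0.29 with a common median).

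Cycs encodes cytochrome c, the mobile carrier that also triggers caspases when it leaves the mitochondrion. It read 15887 and 16335 with LIF against 15630 and 15385 without LIF, means of 16111 ± 317 and 15507 ± 173 (SD, n = 2). Both arrays without LIF were lower by a small margin, with a log2 change of -0.06 (95% interval -0.42 to 0.31, limma adjusted p = 0.93). Its other probe sets above the filter read -0.08 and -0.07, and the mean of all its probe sets, 0.41, came from 1 below the filter (24.7 and 1.2 with LIF, 20.2 and 18.6 without LIF).

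**Figure D2:**
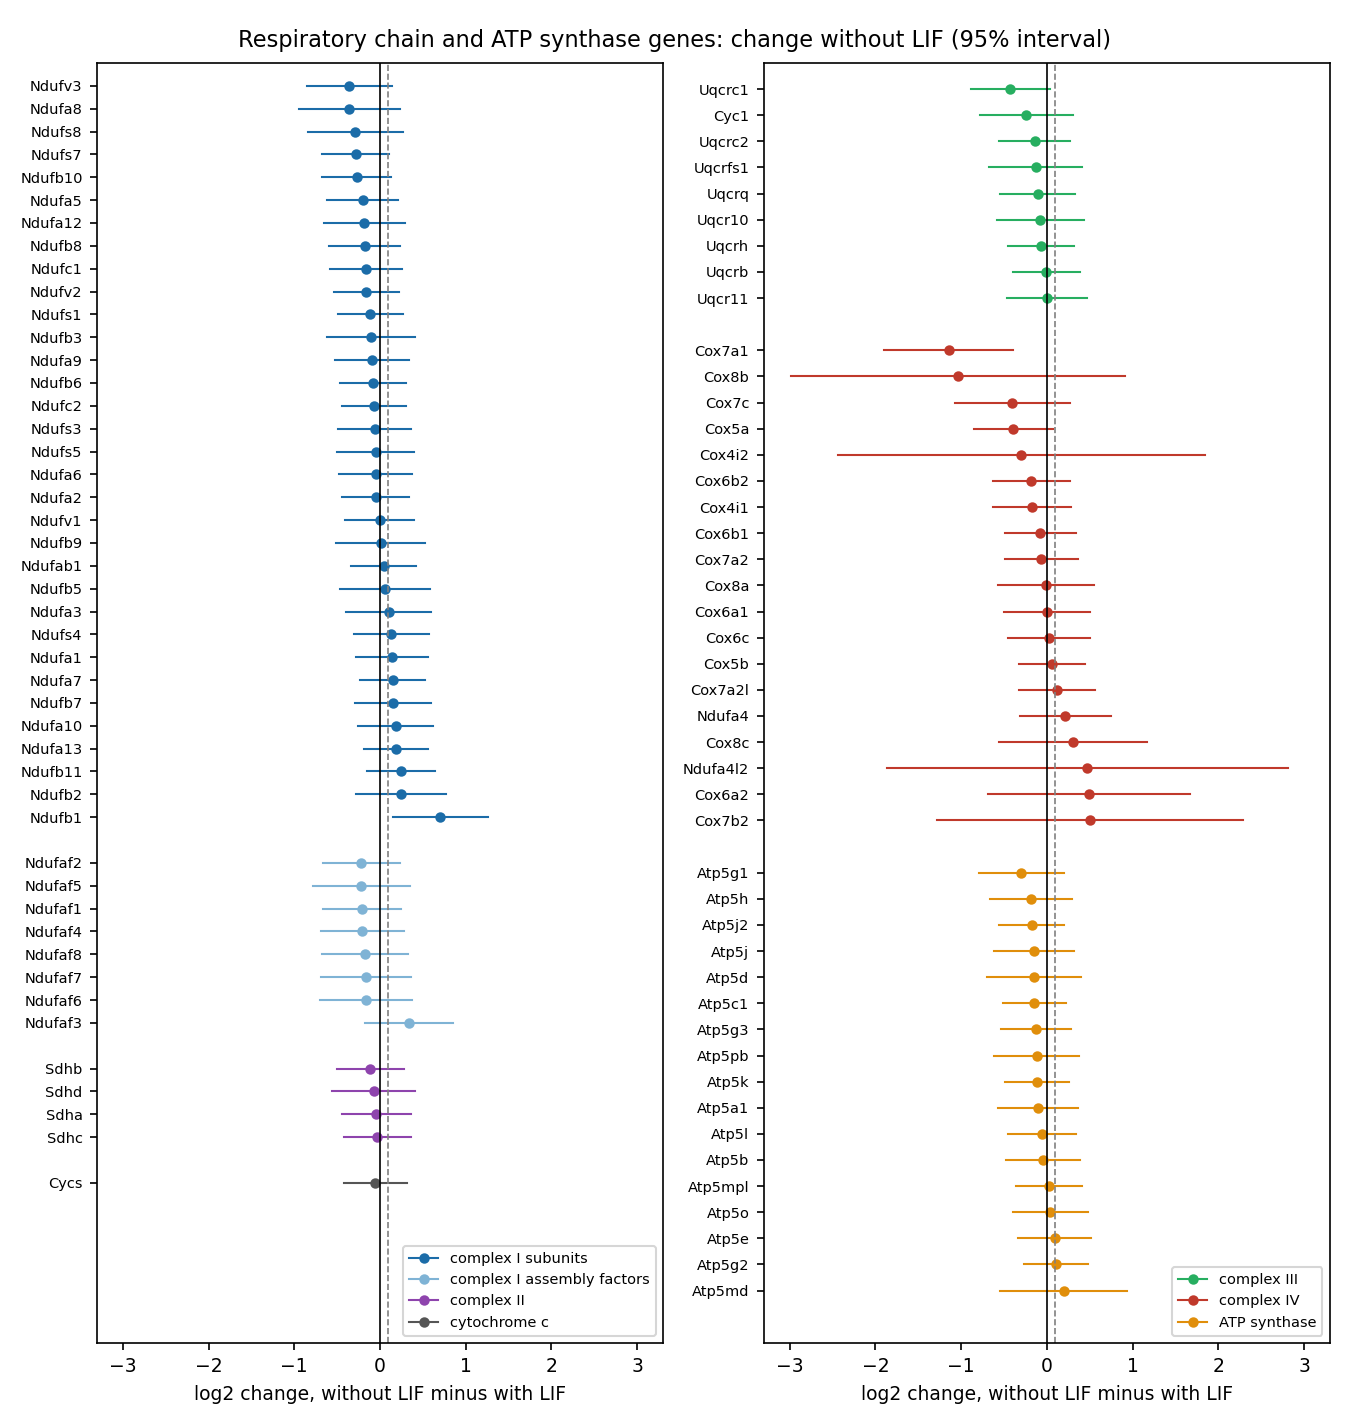
Log2 change without LIF (horizontal axis, points) with 95% intervals from limma (lines) for the 91 tested members, grouped and coloured by complex; the solid line marks 0 and the dashed line the median of all tested genes, 0.09. The intervals of Cox7a1 and Ndufb1 leave out 0 before adjustment for the number of genes, and the dim tissue isoforms of complex IV have the widest intervals.

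Complex IV held both members with a change of 1 or more in size. Its subunits come in common forms, expressed in most tissues, and in isoforms known from single tissues. The 10 common members had a median change of -0.04 and ran from -0.40 to 0.21. Cox5a, a subunit that joins the catalytic core early, read 21154 and 26100 with LIF against 16122 and 19957 without LIF. The groups did not overlap. The log2 change was -0.39 (1.31-fold, 95% interval -0.85 to 0.07, limma adjusted p = 0.53), the same within the arrays numbered 1 and 2 (both -0.39). Its other probe sets read -0.39 and -0.30. With the number as a block Cox5a passed at an adjusted p of 0.049. Cox7c read 503 and 397 with LIF against 401 and 285 without LIF, and its groups overlapped (log2 change -0.40, 95% interval -1.07 to 0.27). It was the dimmest of the common members, with a mean log2 signal of 8.60 against their median of 13.9. Cox4i1, the main form of the subunit that binds ATP, read 20055 and 23541 with LIF against 16982 and 21742 without LIF (log2 change -0.18), again with overlap. Cox7a2l, a relative of the Cox7a subunits that helps complexes III and IV to join in supercomplexes, read 4670 and 5873 with LIF against 5399 and 5992 without LIF, with a log2 change of 0.12 (-0.17 with a common median).

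The isoform Cox7a1 had the largest change of all members. It is known from heart and skeletal muscle, where it takes the place of Cox7a2. Cox7a1 read 895 and 1382 with LIF against 397 and 636 without LIF, means of 1139 ± 345 and 517 ± 169 (SD, n = 2). The groups did not overlap, although the array numbered 2 was above the array numbered 1 in both. The log2 change was -1.15 (2.21-fold lower, SE 0.32, 95% interval -1.90 to -0.39, unadjusted p = 0.0088, limma adjusted p = 0.25), with -1.17 and -1.12 within the numbers. With the number as a block it passed (adjusted p = 0.0027). Of the 4 fits that dropped 1 array it passed in 1, without array 2 of the group without LIF (-1.49, adjusted p = 0.019), where 3.43% of all genes were called, and in the others its adjusted p was 0.21 to 0.79 (-1.46 to -0.81). Cox7a2, the common form, read 17371 and 20212 with LIF against 16307 and 19620 without LIF. Its groups overlapped, and its log2 change was -0.07 (0.02 with quantile normalization; 95% interval -0.49 to 0.36). The difference between the changes of the 2 genes was not tested. With the number as a block, Cox7a1 and Cox5a were the 2 members called, both lower, of 91 (of all tested genes 2.62% were called lower, 4.13% higher and 6.75% in either direction).

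The promoters of these genes are shown because Cox7a1 is the member with the largest change, Cox7a2 is its common counterpart, and Cox5a is the other member called with the block. The lines give the 250 bases before the transcript start, 5' to 3' on the gene's strand, from RefSeq on GRCm38.p6, with CpG dinucleotides in capitals. They lie at chr7:30183921-30184170 (plus strand), chr9:79759854-79760103 (minus strand) and chr9:57520982-57521231 (plus strand).
Cox7a1: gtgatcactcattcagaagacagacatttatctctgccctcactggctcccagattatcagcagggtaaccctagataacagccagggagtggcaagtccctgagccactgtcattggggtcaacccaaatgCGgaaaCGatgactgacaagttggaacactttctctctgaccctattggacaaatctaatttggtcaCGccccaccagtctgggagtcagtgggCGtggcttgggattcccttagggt
Cox7a2: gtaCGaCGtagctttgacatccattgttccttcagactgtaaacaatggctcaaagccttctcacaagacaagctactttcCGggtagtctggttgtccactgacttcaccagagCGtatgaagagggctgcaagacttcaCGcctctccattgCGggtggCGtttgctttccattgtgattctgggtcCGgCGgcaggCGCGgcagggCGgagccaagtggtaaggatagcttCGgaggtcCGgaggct
Cox5a: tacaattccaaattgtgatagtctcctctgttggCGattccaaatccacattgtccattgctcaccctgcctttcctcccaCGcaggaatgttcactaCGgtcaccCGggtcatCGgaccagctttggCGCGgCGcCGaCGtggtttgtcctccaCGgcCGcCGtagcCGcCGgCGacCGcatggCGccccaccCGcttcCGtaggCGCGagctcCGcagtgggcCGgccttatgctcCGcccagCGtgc
The Cox7a1 stretch held 4 CpGs, that of Cox7a2 held 14 and that of Cox5a held 26. Over the 80 windows of the 75 members that matched by gene identifier the median was 15, against 6 over all 32851 windows of the table. Among these 75 members Cox8b, another muscle isoform, had 1 CpG, and Cox7a1 shared the next lowest count with Ndufc2. Cox6a2, also a muscle isoform, had no matched window, and neither had Cox4i2, Cox8c and Ndufa4l2.

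Letters known from the binding sites of factors that act on mitochondrial genes were counted on both strands in the windows of 300 bases, which run to 50 bases past the start. The NRF1 palindrome was in 7.5% of member windows and 0.971% of all windows, CCGGAAG (ETS factors such as Gabpa) in 23.8% and 8.86%, AAGATGGCG (YY1) in 8.75% and 1.4%, and AAGGTCA (ESRR factors) in 10% and 4.72%. The ETS string ends in the letters AAG with which the YY1 and ESRR strings begin, so matches can overlap, and a match is a description of the letters only. The NRF1, ETS and YY1 strings each hold a CpG, and members had a median of 15 CpGs against 6 over all windows. The shares were not matched for CpG content. Uqcrc1 was among the 6 members with the NRF1 string, and Ndufs7 among the 7 with the YY1 string. The 3 printed promoters held 0 of the 4.

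The other tissue isoforms of complex IV were mostly dim, and their changes are poorly limited. Cox6b2, known from testis, was the exception, at 1068 and 1111 with LIF against 924 and 999.9 without LIF (log2 change -0.18, 95% interval -0.63 to 0.27), and both arrays without LIF were lower. Cox7b2, also known from testis, read 134 and 328 with LIF against 134 and 658 without LIF, so that its change was 0.00 for array number 1 and 1.01 for number 2. Cox8c, of testis, read 167 and 301 with LIF against 315 and 244 without LIF. The muscle isoforms Cox6a2 and Cox8b had mean signals of 53.5 and 42.7 with LIF against 74.5 and 23.4 without LIF, and the change of Cox8b, -1.03, came from the arrays numbered 1 (-2.15, against 0.08 within the others). Cox4i2, a form known from lung and low oxygen, read 40.2 and 35.2 with LIF against 13.3 and 70.6 without LIF. Ndufa4l2, a paralog of Ndufa4 that low oxygen induces, read 15.4 and 66.4 with LIF against 89.9 and 21.9 without LIF. In both of these the sign of the change differed between the numbers.

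**Figure D3:**
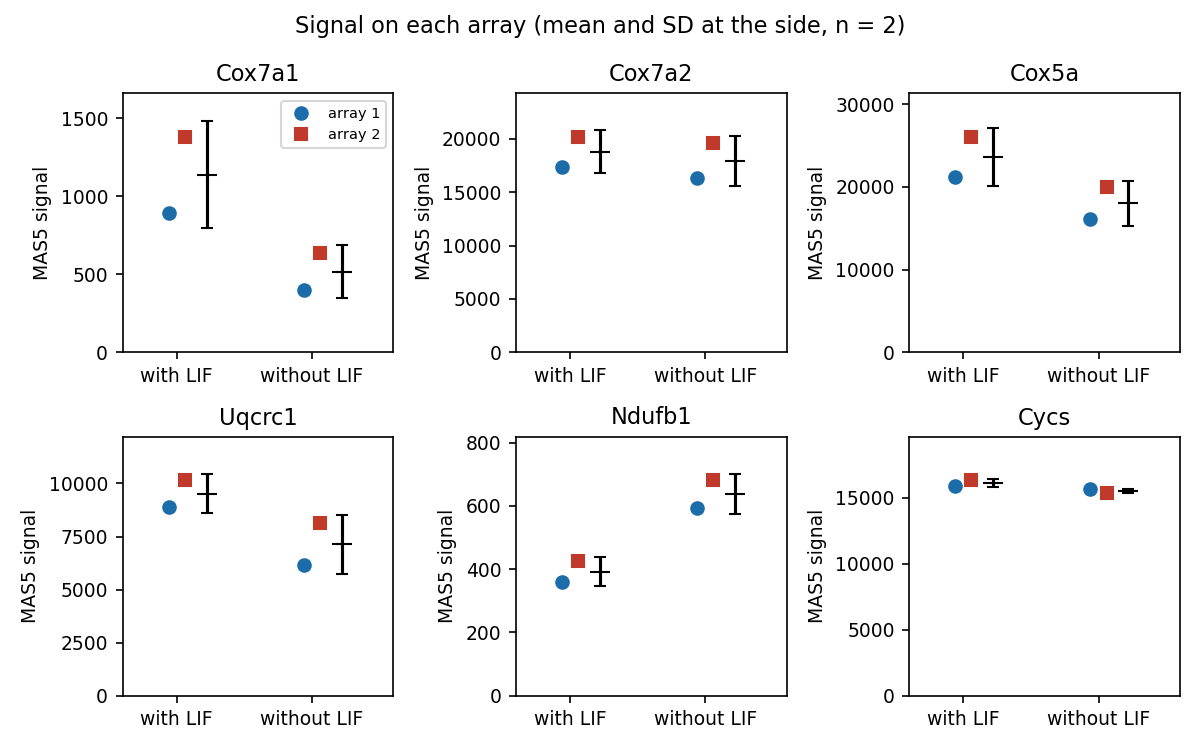
MAS5 signal (vertical axis, from 0) on each array for 6 members with LIF and without LIF; circles are the arrays numbered 1, squares those numbered 2, and the bars at the side give the mean and SD (n = 2). Cox7a1 lies at 895 and 1382 with LIF and at 397 and 636 without LIF, while the groups of Cox7a2 overlap.

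ATP synthase had 17 tested members, 12 with negative and 5 with positive changes, a median of -0.12 (-0.03 with quantile normalization) and 0 calls. In the catalytic F1 part, Atp5b, the beta subunit that makes ATP, read 21079 and 25364 with LIF against 20621 and 24360 without LIF. The groups overlapped, and the log2 change was -0.05 (0.02 with quantile normalization; 95% interval -0.48 to 0.39). Atp5c1, the gamma subunit that turns inside F1, read 13594 and 14553 with LIF against 12601 and 12822 without LIF. Both arrays without LIF were lower, with a log2 change of -0.15 (95% interval -0.52 to 0.22, limma adjusted p = 0.79). Atp5e, the epsilon subunit at the foot of that rotor, had a log2 change of 0.09 (-0.20 with a common median).

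The c ring of ATP synthase, which turns as protons pass, is encoded by 3 genes whose mature proteins are known to be the same. Atp5g1 read 10466 and 11446 with LIF against 7463 and 10603 without LIF, and its log2 change of -0.30 (95% interval -0.79 to 0.20) was -0.49 for array number 1 and -0.11 for number 2. Atp5g2 read 10063 and 10350 with LIF against 10874 and 11105 without LIF. These groups did not overlap, and the change was 0.11 (-0.19 with a common median and -0.10 with the mean of its probe sets; 95% interval -0.26 to 0.47). Atp5g3 read 18421 and 20857 with LIF against 16623 and 19456 without LIF, a change of -0.12 with overlap. None of the 3 passed in limma, with adjusted p from 0.66 to 0.85.

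In the stalk and membrane part, 6 of 9 members had negative changes, with a median of -0.12. Atp5j2, subunit f, read 13384 and 14371 with LIF against 11717 and 12860 without LIF, and both arrays without LIF were lower (log2 change -0.18, 95% interval -0.56 to 0.21, limma adjusted p = 0.75). The mean of its probe sets, 0.35, came from 1 below the filter that read 1.35, while the other read -0.13. Atp5k, subunit e, was also lower on both arrays, with a log2 change of -0.12. The summed signal of all 17 ATP synthase members was 192469 and 223532 with LIF against 178953 and 213367 without LIF, so that the groups overlapped.

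**Figure D4:**
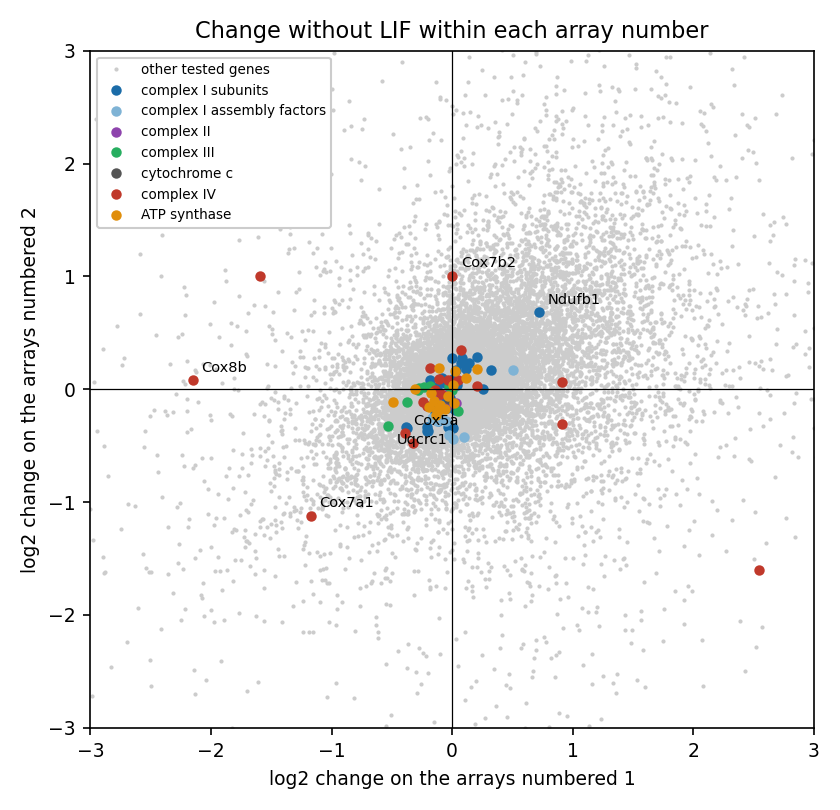
Log2 change for the arrays numbered 1 (horizontal axis) and for those numbered 2 (vertical axis) for tested genes (grey) and members (coloured by complex). Cox7a1 lies at -1.17 and -1.12 and Ndufb1 at 0.72 and 0.68, while most members lie near the origin; points beyond 3 in size are not drawn.

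Median changes were -0.05 for complex I subunits, -0.06 for complex II, -0.11 for complex III, -0.01 for complex IV and -0.12 for ATP synthase. Each lay below the median of all genes, 0.09, but the 1378 tested genes at a signal of 3426 or more had a median of -0.08. Complexes I, II and IV lay above that value, and complex III and ATP synthase below it. Complex IV joins 10 common members, with a median of -0.04, and 8 mostly dim tissue isoforms, with a median of 0.06. With quantile normalization the medians of the complexes read 0.01, 0.0017, -0.04, 0.07 and -0.03 in the order above. The median of all genes was then 0.02, so that complex IV lay above it. With a common median the complexes read -0.34, -0.35, -0.40, -0.30 and -0.41, against -0.20 for all genes. Within the arrays numbered 1 and 2 the medians were -0.03 and -0.06 for complex I, -0.02 and -0.11 for complex II, -0.23 and -0.0041 for complex III, -0.10 and 0.03 for complex IV and -0.11 and -0.10 for ATP synthase. Differences between complexes were not tested.

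Several members have more than 1 probe set. Of the 92 members 52 had several and 40 had 1. Of the 80 further probe sets above the filter, 59 had the same sign as the probe set used and 21, of 17 members, had the opposite sign. Several of these are dim, such as a second probe set of Uqcrq with signals of 86.5 and 44.4 with LIF against 163 and 125 without LIF.

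Genes that serve the chain without being part of it had 0 calls in the main fit. Both arrays without LIF were below both with LIF for 31.6% of the tested assembly factors and 40.9% of the tested biogenesis regulators, against 15.2% of all tested genes. In the other direction the shares were 10.5% and 4.55%, against 27.3%. These lists were brighter than all tested genes, with median log2 signals of 10.2 and 10.6 against 8.49. The 1378 tested genes at a signal of 3426 or more were brighter still (median 12.5). Of those, 26% lay apart lower and 9.29% higher. The shares were not matched for signal. Counts with the block are to be read against its 2.62% called lower and 4.13% higher over all genes. Among 38 tested assembly factors of the chain and ATP synthase 0 passed, the median change was -0.14, and with the number as a block 1 fell, Cox20, a chaperone of the Cox2 subunit. Cox20 read 888 and 935 with LIF against 549 and 609 without LIF (log2 change -0.66, SE 0.21, limma adjusted p = 0.31, and 0.047 with the block). The copper chaperone Sco1, the complex I factor Acad9 and the complex IV factor Coa5 read 0.58, -0.45 and 0.33, but with the mean of probe sets Acad9 read 0.028 and Coa5 -0.066, and with plain probe sets Coa5 read -0.47. Among 22 regulators of mitochondrial DNA and biogenesis 0 passed, with a median of -0.23. Of the 22, 18 were negative, against 5867 of all 14445 tested genes and 933 of the 1378 at 3426 or more. With the block 1 fell. That was Gabpa, an ETS factor that acts on many respiratory genes, at 3637 and 4686 with LIF against 2789 and 3015 without LIF (log2 change -0.51, limma adjusted p = 0.40, and 0.043 with the block). Polrmt, Tfb2m and Polg, which transcribe and copy mitochondrial DNA, read -0.47, -0.37 and 0.44.

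Among 24 genes of the TCA cycle and pyruvate dehydrogenase 0 passed with or without the block, and the median change was -0.12. Sucla2, Pdhx, Idh3a and Pdha1 read -0.42, -0.41, -0.30 and -0.27, with both arrays without LIF lower in each, but the mean of its probe sets gave 0.33 for Idh3a. The 21 genes of glycolysis and lactate had a median of -0.15 and 0 calls, and with the block 2 rose and 1 fell. Slc16a3, a lactate exporter, read 295 and 151 with LIF against 670 and 541 without LIF (log2 change 1.51, SE 0.36, limma adjusted p = 0.19, and 0.0035 with the block). It passed in the same 1 of the 4 fits that dropped an array (1.67, adjusted p = 0.035), and in the others its adjusted p was 0.11 to 0.59. Slc2a1, the glucose transporter Glut1, read 12747 and 11808 with LIF against 19001 and 17861 without LIF, which is 0.59 on the log2 scale (limma adjusted p = 0.24, or 0.0081 under the block). Aldoc, an aldolase, was lower on both arrays, at -0.94 on the log2 scale (limma adjusted p = 0.33, or 0.040 under the block), and Hk2, a hexokinase, read -0.41.

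Markers of other cell states are given for the same arrays. Of the tested genes in these 6 lists 1 passed in limma. It was Tfap2c, placed in the trophoblast list, which fell by 2.16 on the log2 scale (adjusted p = 0.027). Tfap2c did not pass with quantile normalization (limma adjusted p = 0.054), without the variance trend (0.29) or when the LIF group lost array 2. The sums overlapped between the groups for all but the ES cell identity and primitive streak lists. The summed signal of 10 ES cell identity genes was 120728 and 141505 with LIF against 76645 and 105057 without LIF. Of these 10 genes 8 had negative and 2 had positive changes. Zfp42, Tdgf1, Nanog and Sox2 had log2 changes of -1.38, -1.48, -1.41 and -0.52. In the other direction Lin28a read 0.87, with groups that did not overlap, while the groups of Pou5f1, Dppa4 and Dppa5a overlapped. The summed signal of 15 primitive endoderm genes was 7143 and 17028 with LIF against 8766 and 29894 without LIF. For 8 neuroectoderm genes it was 1339 and 588 with LIF against 3460 and 1088 without LIF. The sums of 10 primitive streak genes were 540 and 564 with LIF against 714 and 843 without LIF. Eomes made 161 and 167 against 264 and 360 of these, and Fgf8 made 4.1 and 6.9 against 115 and 95.4. Of the 7 tested primitive streak genes 4 had positive and 3 had negative changes. For 10 trophoblast genes the sums were 3680 and 5049 against 2245 and 3697. Tfap2c made 2667 and 3785 against 707 and 713 of these, while 4 of the 6 tested trophoblast genes had positive changes. For 12 fibroblast or feeder genes the sums were 1662 and 694 against 2705 and 1167. Of the markers in these 6 lists 0 had a signal of 0. The lowest values were 1 for primitive streak, 1.7 for trophoblast, 2.8 for primitive endoderm, 3 for fibroblast or feeder and 3.6 for neuroectoderm. These lay below the filter, unlike the lowest ES cell identity value of 2873. The markers also differed by array number. In both groups 14 of 15 primitive endoderm genes were higher on the array numbered 2, with log2 medians of 1.22 with LIF and 2.13 without LIF. The same held for 0 of 6 tested neuroectoderm genes (medians -0.89 and -1.51) and 0 of 9 tested fibroblast or feeder genes (-0.65 and -0.88). Fewer cells of a type and less RNA per cell cannot be told apart in bulk samples. The part of these markers in the values of Cox7a1 or any other member was not tested.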

How the data were processed

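Total RNA of CGR8 cells was measured on 4 Affymetrix arrays, 2 per group. The authors deposited 1 signal intensity per probe set on a linear scale, made with MAS5 per the submitters' processing notes (the version is not given in the sources used here). The trimmed mean was the same on each array, and no further scaling was applied. Probe sets were named by the platform annotation, and those with several symbols or none were left out. Values at or below 0 (1 in the table) were set to 0.1, and log2 was taken. A gene was tested where its mean log2 signal exceeded the 30th percentile of probe sets (4.51). The test was limma 3.58.1 (R 4.3.3), with group as the only model term and moderated variances that follow a trend in signal, two-sided, with Benjamini-Hochberg adjustment over 14445 genes and a threshold of 0.05. Scripts were tested on simulated data. Figures used Python 3.11.15 and matplotlib 3.10.9.

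Genes named were, per complex, the 3 with the smallest p and the brightest and dimmest, members with a log2 change of 1 or more in size, complex II, Cycs, Cyc1, the tissue isoforms, the c ring, and up to 4 of each other pathway list. Cox7a2, Cox4i1, Cox7a2l, Socs3, Tfap2c, Pou5f1, ND5, Uqcrq, Ndufb4 and Ndufc2 were chosen after their values were seen. So were the markers Zfp42, Tdgf1, Nanog, Sox2, Lin28a, Dppa4, Dppa5a, Eomes and Fgf8. The further members whose groups did not overlap (Ndufb11, Ndufa13, Ndufb10, Ndufa5, Ndufv2, Ndufs1, Atp5k) were chosen in the same way. Members and lists were chosen with earlier results of these data known. The settings varied were the filter (none, or the 50th percentile), the offset added before log2 (none, or the 20th percentile of signal), quantile normalization, a common median of all probe sets except controls, no trend, the mean of probe sets, plain probe sets, the array number as a block, and leaving out each array. The number of arrays limits the precision.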

Additional observations from a re-analysis of the deposited data

How the results depend on the processing

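The count of members called was 0 in every alternative except the block (2) and leaving out 1 array (0 to 1, the 1 being Cox7a1 without array 2 without LIF). Over all genes limma called 21, against 58 with the filter at the 50th percentile, 40 with the pseudocount, 10 with quantile normalization, 131 with a common median and 12 with the mean of probe sets. Without the trend it called 0, with 1589 at an unadjusted p under 0.05. Leaving out 1 array gave 7 to 496. With the array number as a replicate block it called 975. Deviations of same-numbered arrays correlated at r = 0.29 over genes, and with 2 numbers this does not show that the numbers pair the samples. The median of ATP synthase was -0.034 with quantile normalization, and -0.20 to 0.026 with 1 array left out. With a common median the medians were -0.37 for the members, -0.34 for complex I, -0.35 for complex II, -0.40 for complex III, -0.30 for complex IV and -0.41 for ATP synthase. Small changes turned sign. With quantile normalization Sdha read 0.017, Sdhc 0.027, Uqcrb 0.065, Cycs 0.064, Atp5b 0.018 and Cox7a2 0.021. With a common median Ndufa7 read -0.15, Uqcr11 -0.29, Atp5e -0.20, Atp5g2 -0.19, Cox7a2l -0.17, ND5 -0.26, Ndufb11 -0.046, Ndufa13 -0.11 and Pou5f1 -0.27. With the mean of probe sets Sdhd read 0.038, Cycs 0.41, Atp5j2 0.35, Atp5g2 -0.10, Acad9 0.028, Coa5 -0.066 and Idh3a 0.33, and with plain probe sets Coa5 read -0.47 and Ndufa5 0.020. With 1 array left out the ranges that crossed 0 were -0.18 to 0.089 for Atp5b, -0.045 to 0.23 for Atp5e, -0.36 to 0.00094 for Cox4i1, -1.50 to 0.91 for Cox4i2, -0.20 to 0.066 for Cox7a2, -0.046 to 0.28 for Cox7a2l, -0.64 to 1.65 for Cox7b2, -0.12 to 0.73 for Cox8c, -0.52 to 0.039 for Cyc1, -0.42 to 0.49 for ND5, -0.58 to 1.53 for Ndufa4l2, -0.38 to 0.032 for Ndufaf8, -0.26 to 0.30 for Pou5f1, -0.16 to 0.067 for Sdha, -0.27 to 0.12 for Sdhd, -0.16 to 0.16 for Uqcr11, -0.085 to 0.075 for Uqcrb and -0.30 to 0.0088 for Uqcrc2. The lone array left in a group is then assumed to vary like the other group. Socs3 no longer passed without the trend (adjusted p = 0.25) or with plain probe sets (0.057, limma). The causes were not tested.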

Other observations

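ND5, a complex I subunit encoded by mitochondrial DNA and so outside the nuclear genes described above, had a probe set on the arrays. With LIF its signals were 15339 and 10232, and without LIF they were 17549 and 9354. The groups overlapped, and the log2 change was 0.03 (SE 0.33, limma adjusted p = 0.99; -0.26 with a common median), or 0.19 for array number 1 alone and -0.13 for number 2 alone. In both groups ND5 was lower on the array numbered 2, where 67 of the 91 nuclear members were higher.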
